A study of Mus musculus with 2 samples.

Results

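The collagen chain genes were described here across the cells of the inflamed mouse colon. The 33 genes were taken by their exact symbols from the 32285 genes of the count tables, and fall into 7 fibrillar chains, 9 chains of basement membranes and their anchoring or associated collagens, 6 type VI chains, 3 FACIT chains (fibril-associated collagens with interrupted triple helices), 4 transmembrane chains and 4 others. They were chosen by the protein they encode and not by a threshold on a measured value, with earlier results of these data known. The other 11 collagen genes of the tables had 299 UMIs (unique molecular identifiers, each counting 1 captured RNA molecule) for WT and 533 for HIF-1α KO, and are not described further.

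Collagens are secreted or membrane-bound proteins in which 3 chains wind into a triple helix, so chains of a shared protein have to be made in the same cell. Fibrillar collagens give tissue its tensile strength, type IV collagen forms the meshwork of basement membranes under epithelia and around vessels, muscle and nerve, and type VI collagen forms beaded filaments between both. In the gut wall, fibroblasts and smooth muscle cells are the known main producers of interstitial collagen, and excess deposition by these cells is known as fibrosis in chronic colitis.

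Single-nucleus RNA sequencing had been done on frozen colon from a WT and a HIF-1α KO pool of mice. The latter carry Ncr1cre+ with the Hif-1α fl/fl alleles, so that Cre is driven by the promoter of NKp46, a receptor of natural killer cells and some innate lymphoid cells. All mice had chronic dextran sulphate sodium (DSS) colitis, with 2% DSS for 3 days and then a 4-day recovery, 4 times over, from an age of 8 to 12 weeks, and tissue was taken at day 28. Each genotype was 1 library made from a pool of 3 animals, so no difference between genotypes could be tested, and animal, library and genotype cannot be told apart. The intervals below are exact 95% Poisson intervals for a level and exact conditional binomial intervals for a ratio, and cover counting error only.

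The files held 4896 barcodes for WT and 4772 for HIF-1α KO, of which 4884 and 4702 passed the limits on detected genes (400 to 5000) and mitochondrial UMIs (at most 10%). The HIF-1α KO library was deeper, with a median of 4197 UMIs per nucleus against 2058.5, and 3 kept barcodes occurred in both libraries. Hif1a had 2284 WT and 4699 HIF-1α KO UMIs, and Ncr1, which marks the cells with Cre, had 1 and 0 UMIs, so the deletion could not be checked in the cells that carry it. Nuclei were grouped with all collagen genes left out of the clustering, and groups were named from other marker genes. The fibroblast-like class had 228 WT and 119 HIF-1α KO nuclei and held all 7 fibroblast markers in both libraries, with a summed level of 2817 and 3627 CPM (UMIs per 1000000 UMIs of a class in a library). The smooth muscle-like class had 274 and 128 nuclei, and its 7 markers summed to 9817 and 16732 CPM. No cluster was named as pericytes. All 7 goblet markers were found in these nuclei too, at a sum of 1356 and 2180.2 CPM in fibroblast-like and 1338 and 2146 CPM in smooth muscle-like nuclei, and their part in the ratios below was not tested. The enteric neuron markers summed to 5914 and 7479 CPM in smooth muscle-like nuclei, of which Kcnip4 alone made up 5878 and 7447 CPM, while the other 5 markers had 0 to 15.2 CPM each.

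Collagen UMIs were concentrated in stromal nuclei. The 33 genes together had 9715 WT and 7206 HIF-1α KO UMIs. Fibroblast-like nuclei made up 4.67% of WT nuclei, where they held 37.5% of the collagen UMIs, and 2.53% of HIF-1α KO nuclei, where they held 32.5%. Smooth muscle-like nuclei were 5.61% and 2.72% of the nuclei and held 18.7% and 16.1% of the collagen UMIs. Summed over the 33 genes, the level in fibroblast-like nuclei was 6589 CPM (6376 to 6806) in WT and 6712 CPM (6443 to 6990) in HIF-1α KO. The sum was 2751 and 2489 CPM in smooth muscle-like nuclei, 2204 and 2448 CPM in blood endothelial-like nuclei, and 1570.4 and 1911 CPM in lymphatic endothelial-like nuclei. All named epithelial nuclei as 1 group had 223 and 116 CPM.

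**Figure D1:**
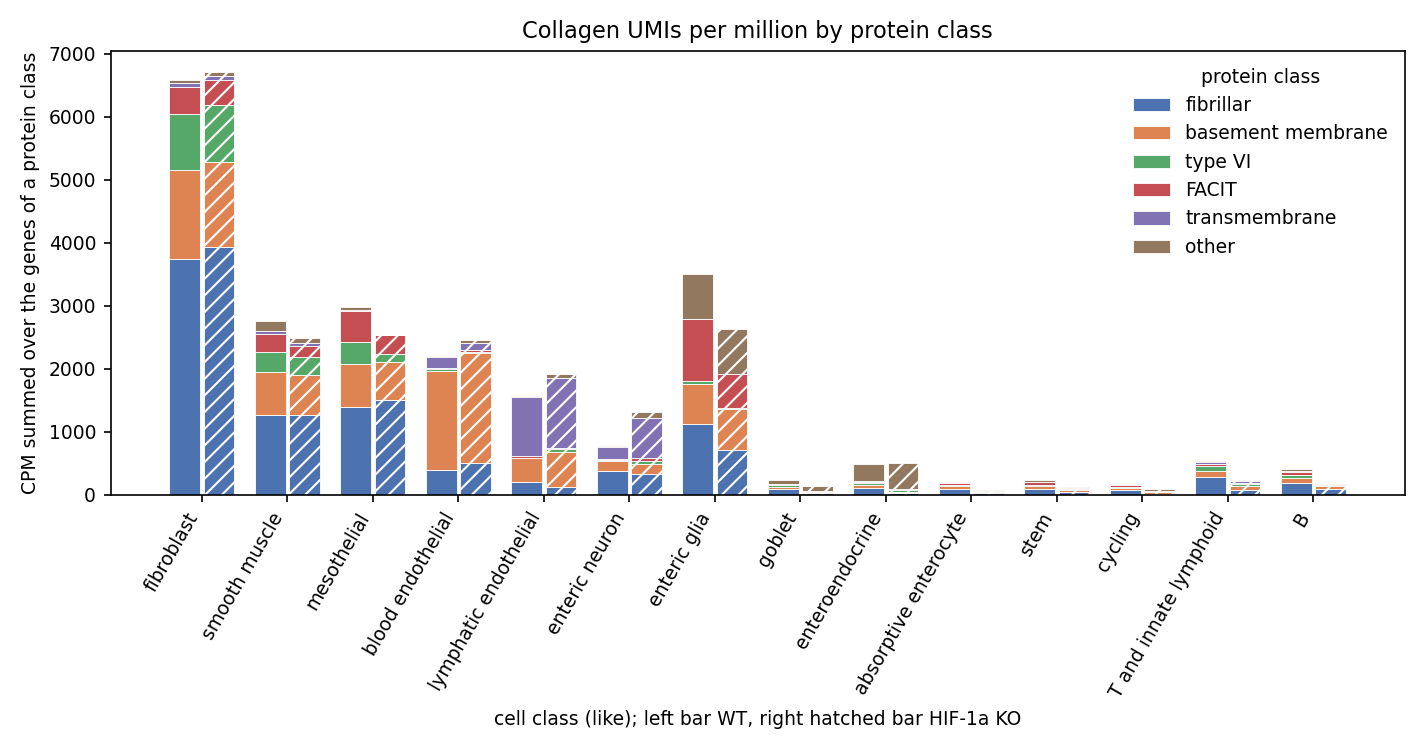
Stacked bars give the CPM summed over the genes of each collagen protein class (y axis) in each named cell class (x axis), with WT on the left and HIF-1α KO hatched on the right, 1 library each. Fibroblast-like nuclei have the tallest bars, 6589 and 6712 CPM, blood endothelial-like bars are mostly basement membrane chains, and lymphatic endothelial-like bars are mostly a transmembrane chain.

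The fibrillar chains were led by Col3a1, the only chain of type III collagen, and Col5a2, a chain of the type V collagen found inside type I fibrils. Col3a1 (chromosome 1, 45311538 to 45349706 on GRCm38) had 1066 CPM (982 to 1156) in WT fibroblast-like nuclei and 1255 CPM (1140.0 to 1378) in HIF-1α KO. Per length of the gene body, Col3a1 had the highest level of all 33 genes in both libraries, 27.9 and 32.9 CPM per kb, and it was also first per kb of exon, with 109 and 128 CPM per kb. Col1a1 and Col1a2, the chains of type I collagen, followed per kb of gene body, with 21.6 and 13.3 CPM per kb for Col1a1 and 15.7 and 16.1 CPM per kb for Col1a2. Col5a2 came second per kb of exon, at 83.4 and 99.8 CPM per kb. Its partner chain Col5a1 had 447 and 415 CPM in fibroblast-like nuclei and Col27a1 had 362 and 364 CPM. A nucleus holds unspliced RNA and whether reads in introns were counted is not given in the sources used here, so both lengths are shown.

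The bases before the start of Col3a1 are shown because it is the leading collagen gene of the fibroblast-like nuclei. RefSeq (GRCm38.p6) gives them at chr1:45311288-45311537 on the plus strand, 5′ to 3′, and capitals mark a TATAAA, whose first letter lies 117 bases before the start.
Col3a1: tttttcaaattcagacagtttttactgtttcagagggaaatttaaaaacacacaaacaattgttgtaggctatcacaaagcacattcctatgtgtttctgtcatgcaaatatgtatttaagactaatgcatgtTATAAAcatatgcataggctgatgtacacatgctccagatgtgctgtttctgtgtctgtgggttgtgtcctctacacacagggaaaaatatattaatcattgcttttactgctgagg
CCAAT or its reverse ATTGG and GGGCGG or its reverse CCGCCC were not in this window. Among 32851 windows of 250 bases before RefSeq starts, 12.4% held TATAAA or its reverse TTTATA, 33.8% held CCAAT or ATTGG and 32.7% held GGGCGG or CCGCCC. Of the 33 collagen genes 27 had a window, and these motifs were in 3, 11 and 18 of them, in that order.

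Summed over all nuclei other than fibroblast-like and smooth muscle-like ones, fibrillar UMIs were at a low level but spread over many nuclei. They were 1576 of 4476 UMIs in WT and 965 of 2932 in HIF-1α KO, or 131 and 42.3 CPM. Col3a1 was not low in every class of this sum. Mesothelial-like nuclei had 630 CPM (436 to 880) of it in WT and 1063 CPM (791 to 1397) in HIF-1α KO. Smooth muscle-like nuclei had less, 342 and 309 CPM. The mesothelial-like values came from 34 and 51 UMIs, of which the richest nucleus gave 12 and 19. The share of fibroblast-like nuclei with a Col3a1 UMI was 66.7% (WT) and 61.3% (HIF-1α KO), and their median depth was 1923 and 2209 UMIs. In absorptive enterocyte-like nuclei, which should lack the gene, they were in 8.45% and 4.42% of nuclei at a median depth of 3526 and 5968 UMIs. With each nucleus thinned to 1000 UMIs, the shares were 48.2% and 43.0% in fibroblast-like nuclei and 2.30% and 0.835% in absorptive enterocyte-like nuclei. The epithelial level is given as the background of the fibrillar chains, and over the named epithelial nuclei it was 85.6 CPM for the 7 chains together in WT and 25.8 CPM in HIF-1α KO. Col5a3, the third chain of type V collagen, and Col27a1, the chain of a fibrillar collagen known from cartilage, were also found in enteric neuron-like nuclei, with 79.6 and 122 CPM for Col5a3 and 199 and 132 CPM for Col27a1. In WT neurons these were 12 and 30 UMIs, of which the richest nucleus of each gene gave 4 and 12. In HIF-1α KO they were 24 and 26 UMIs, and the richest nucleus of each gene gave 13. Glia-like nuclei had 139 and 86.0 CPM of Col5a3, from 5 and 4 UMIs. Their Col27a1 level was 306 and 108 CPM, from 11 and 5 UMIs.

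**Figure D2:**
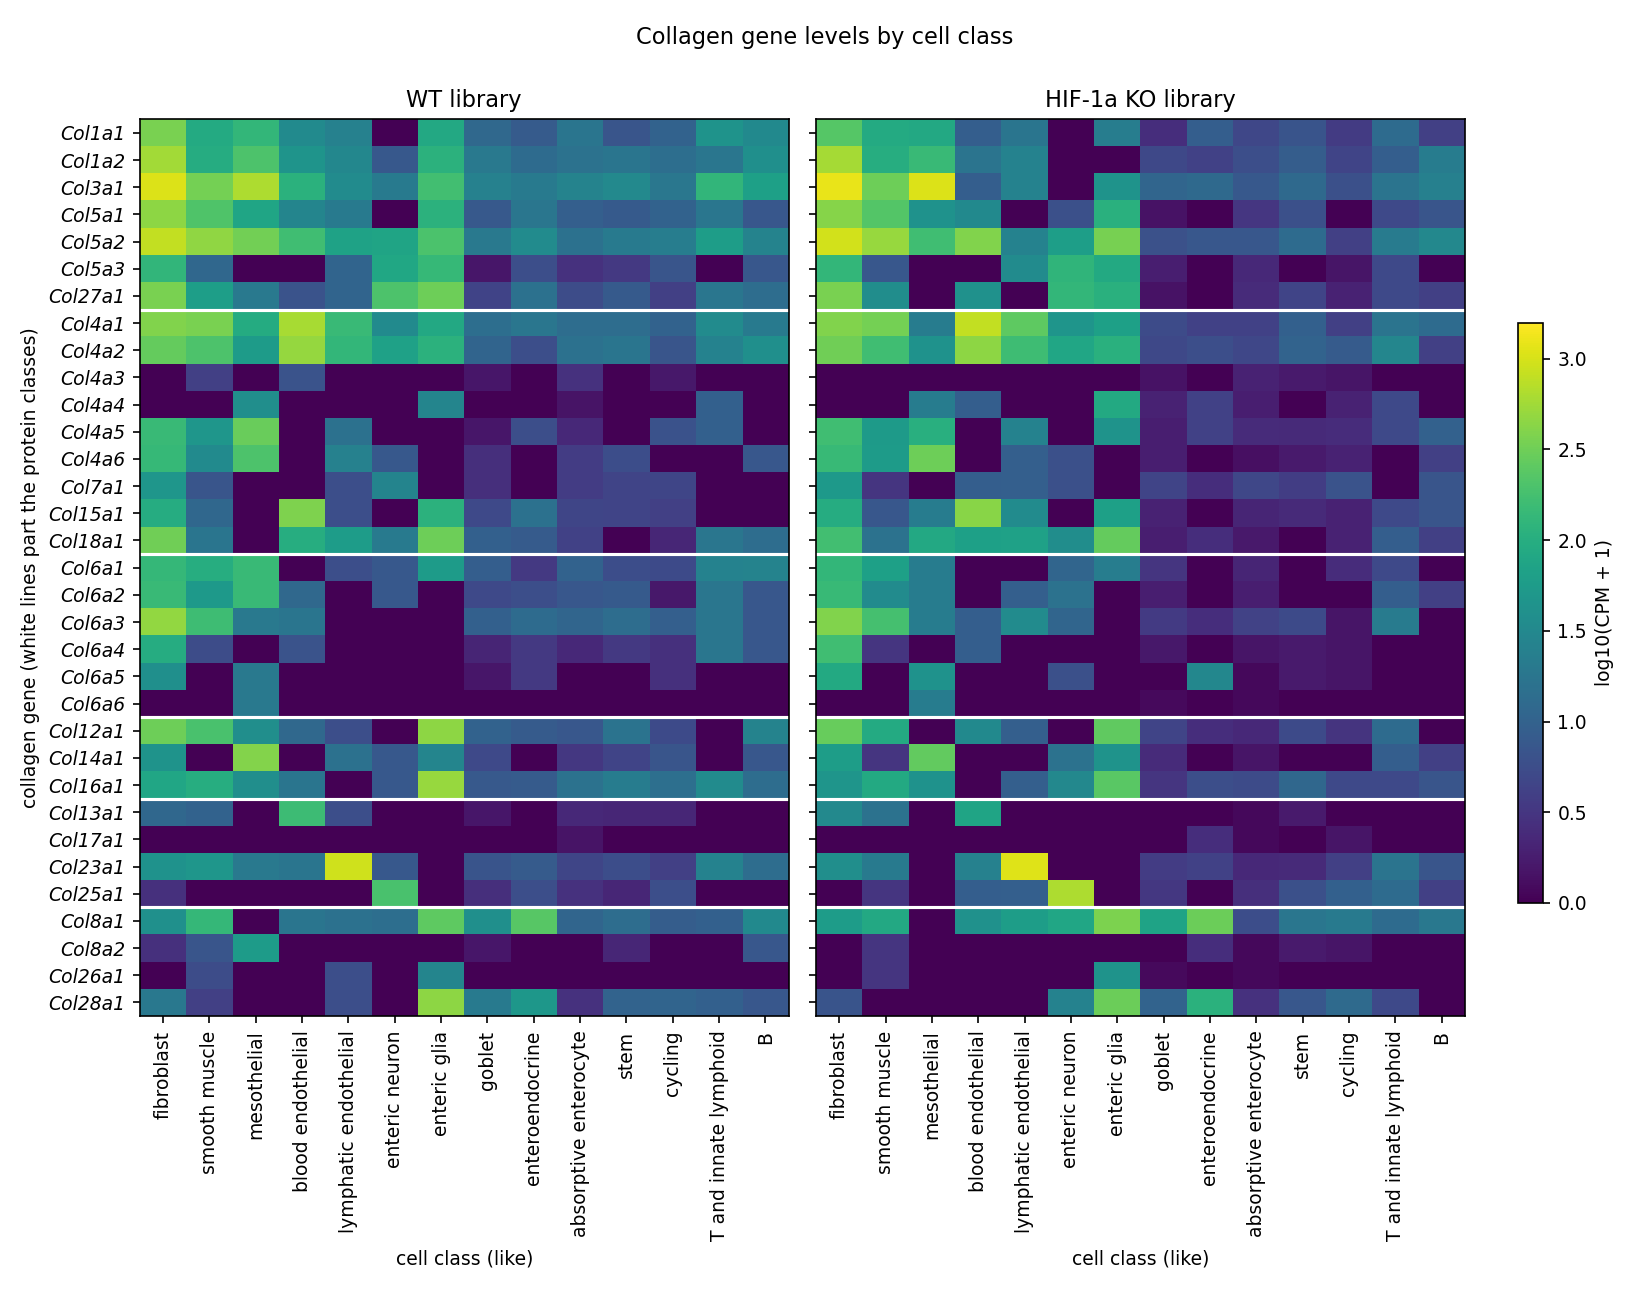
Colour gives log10(CPM + 1) of the 33 collagen genes (rows, with white lines between the protein classes) in the 14 named cell classes (columns), for the WT library on the left and the HIF-1α KO library on the right. Of the fibrillar and type VI chains, 9 are brightest in fibroblast-like nuclei in both libraries (not Col5a3, Col6a1, Col6a2 and Col6a6), as are Col4a1, Col4a2, Col15a1 and Col13a1 in blood endothelial-like nuclei, Col23a1 in lymphatic endothelial-like nuclei and Col25a1 in enteric neuron-like nuclei.

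The basement membrane chains divided by cell class. Col4a1 and Col4a2, the chains of the common type IV network, were highest in blood endothelial-like nuclei, with 599 CPM (492 to 723) for Col4a1 in WT and 797 CPM (648 to 971) in HIF-1α KO, and 489 and 451 CPM for Col4a2. Both genes start 21 bases apart on opposite strands of chromosome 8, and their annotated bodies overlap, so reads at the shared end could be told apart only by strand. Their UMIs came in a ratio of Col4a1 to Col4a2 of 1.22 (0.92 to 1.64) in WT and 1.77 (1.26 to 2.50) in HIF-1α KO blood endothelial-like nuclei. The richest HIF-1α KO nucleus of each gene gave 24 of the 99 Col4a1 UMIs and 13 of the 56 Col4a2 UMIs there. In fibroblast-like nuclei the ratio was 1.42 (1.15 to 1.76) and 1.21 (0.94 to 1.57), and in smooth muscle-like nuclei 1.81 (1.46 to 2.26) and 2.03 (1.53 to 2.70). These are ratios of UMIs and not of copies, since the gene bodies are 114 and 136 kb long. Col15a1, a proteoglycan collagen that links basement membranes to the matrix around small vessels, had 379 CPM (295 to 480) and 427 CPM (320 to 558) in blood endothelial-like nuclei and 3.65 and 1.17 CPM in absorptive enterocyte-like nuclei.

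Col4a5 and Col4a6, whose chains form a separate type IV network known in smooth muscle basement membranes, were absent from the counts of blood endothelial-like nuclei, at 0 UMIs in both libraries, where 3 UMIs would have been 16.5 and 24.2 CPM. They were found together in fibroblast-like nuclei, with 145 and 166 CPM for Col4a5 and 139 and 143 CPM for Col4a6, and in mesothelial-like nuclei. In the 17 WT mesothelial-like nuclei Col4a5 had 296 CPM and Col4a6 had 204 CPM, and in the 13 HIF-1α KO nuclei 104 and 313 CPM, from 5 to 16 UMIs each. In fibroblast-like nuclei Col4a5 had 1.04 (0.75 to 1.44) times the UMIs of Col4a6 in WT and 1.16 (0.78 to 1.73) times in HIF-1α KO. The genes lie head to head on chromosome X with their starts 1309 bases apart. The bases before each start are shown because these chains shared cell classes and subclusters. They come from RefSeq (GRCm38.p6), chrX:141475169-141475384 on the plus strand for Col4a5 and chrX:141474077-141474326 on the minus strand for Col4a6, 5′ to 3′ on the strand of each gene. Capitals mark a CCAAT whose first letter lies 162 bases before the start of Col4a5, and a CCGCCC whose first letter lies 21 bases before the start of Col4a6.
Col4a5: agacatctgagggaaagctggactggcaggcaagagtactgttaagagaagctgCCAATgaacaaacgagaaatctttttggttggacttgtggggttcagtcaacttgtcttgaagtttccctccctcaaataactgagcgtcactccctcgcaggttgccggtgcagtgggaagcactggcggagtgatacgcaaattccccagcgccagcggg
Col4a6: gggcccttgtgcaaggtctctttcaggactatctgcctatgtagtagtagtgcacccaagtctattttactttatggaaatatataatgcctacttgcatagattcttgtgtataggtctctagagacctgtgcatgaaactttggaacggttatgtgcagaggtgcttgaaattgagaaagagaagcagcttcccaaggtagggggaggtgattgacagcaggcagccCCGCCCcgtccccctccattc
The chains that complete the type IV family, Col4a3 and Col4a4, known from kidney and lung, had 11 and 6 UMIs in all WT nuclei and 20 and 26 in all HIF-1α KO nuclei.

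Col18a1, the source of the anti-angiogenic fragment endostatin, had 319 CPM in WT and 169 CPM in HIF-1α KO fibroblast-like nuclei and was also found in the few glia-like nuclei, at 306 and 280 CPM from 11 and 13 UMIs. Col7a1, the anchoring fibril collagen of skin and other squamous epithelia, had 26 UMIs in 9 WT and 18 UMIs in 8 HIF-1α KO fibroblast-like nuclei, and its richest nucleus alone gave 14 and 7 of them. A cluster that stayed unnamed, led by Csmd1, Pcdh15 and Colq, with 24 and 10 nuclei, had 125 and 113 CPM of Col7a1 and 222 and 113 CPM of Col6a4.

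Of the type VI chains, Col6a3, Col6a4 and Col6a5 were highest in fibroblast-like nuclei in both libraries, and Col6a1 and Col6a2 were so in HIF-1α KO, while in WT both had 148 CPM in mesothelial-like nuclei. Col6a3, the long chain of the classical heterotrimer, had 474 CPM (419 to 535) in WT and 395 CPM (332 to 467) in HIF-1α KO fibroblast-like nuclei. Col6a1 and Col6a2, its partner chains, with genes near each other on chromosome 10, had 134 and 129 CPM and 145 and 140.4 CPM, and Col6a1 had 0.92 times the UMIs of Col6a2 in both libraries. Per kb of gene body the order differed, with Col6a1 at 7.71 and 7.42, Col6a3 at 6.08 and 5.07 and Col6a2 at 5.20 and 5.04 CPM per kb. Col6a4 and Col6a5, chains that can take the place of the third one, had 96.0 and 38.0 CPM in WT and 166 and 86.0 CPM in HIF-1α KO. Col6a6, their neighbour on chromosome 9, had 3 and 5 UMIs in all nuclei.

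The FACIT chains, which coat fibrils, had different sites. Col12a1 was found in fibroblast-like nuclei at 308 and 284 CPM and in glia-like nuclei at 446 and 258 CPM, from 16 and 12 UMIs. Col14a1 was highest in mesothelial-like nuclei, at 408 CPM (255 to 617) and 271 CPM (144 to 463), against 43.4 and 60.2 CPM in fibroblast-like nuclei. Col16a1 had 502 and 237 CPM in glia-like nuclei, from 18 and 11 UMIs, and 97.2 and 88.0 CPM in smooth muscle-like nuclei. The glia-like class had only 13 and 9 nuclei, and intervals there span more than a 2-fold range.

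Among the transmembrane chains, Col23a1 stood out in the lymphatic endothelium. It had 936 CPM (809 to 1079) in WT and 1106 CPM (926 to 1312) in HIF-1α KO lymphatic endothelial-like nuclei, and at most 47.1 CPM in any other named class. These nuclei held 58.2% and 61.1% of all its UMIs. It was found in 71.4% and 74.4% of them, at a median depth of 1836 and 2334 UMIs, and in 1.54% and 0.95% of the deeper absorptive enterocyte-like nuclei. Blood endothelial-like nuclei had 3 UMIs of it in each library. Its richest nucleus gave 23 of 192 UMIs in WT and 32 of 132 in HIF-1α KO. The bases before its start are shown because it was the collagen gene with the highest level in lymphatic endothelial-like nuclei. They are RefSeq's (GRCm38.p6) at chr11:51289670-51289919 on the plus strand, 5′ to 3′, and capitals mark a CCGCCC whose first letter lies 11 bases before the start.
Col23a1: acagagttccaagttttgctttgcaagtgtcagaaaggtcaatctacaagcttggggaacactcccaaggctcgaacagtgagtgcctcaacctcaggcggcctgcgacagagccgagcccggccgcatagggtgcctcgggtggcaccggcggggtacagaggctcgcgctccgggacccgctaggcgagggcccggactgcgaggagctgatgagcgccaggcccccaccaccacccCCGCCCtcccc
The CCAAT and TATAAA motifs, on either strand, were not in this window, in which 66.0% of bases are G or C.

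Col25a1, a transmembrane collagen of neurons that was first found in amyloid plaques, was highest in enteric neuron-like nuclei. It had 29 UMIs in 4 of 27 WT nuclei and 125 UMIs in 9 of 22 HIF-1α KO nuclei, or 192 CPM (129 to 276) and 636 CPM (529 to 758). The WT value rests on few nuclei, since 1 nucleus gave 15 of the 29 UMIs, and in HIF-1α KO 1 nucleus gave 32 of 125. Absorptive enterocyte-like nuclei had 1.83 and 1.67 CPM. The log2 ratio of HIF-1α KO over WT in neuron-like nuclei was 1.72 (1.13 to 2.36), an interval that does not hold the spread between nuclei or animals. Col13a1, found at cell adhesion sites and neuromuscular junctions, was highest in blood endothelial-like nuclei, with 154 CPM (102 to 222) and 72.5 CPM (33.1 to 138) from 28 and 9 UMIs. Col17a1, the hemidesmosome collagen of stratified epithelia, had 5 and 7 UMIs in all nuclei.

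Of the other chains, Col8a1, a short network-forming collagen known from vessels and cornea, was found in secretory epithelium as well as in glia-like nuclei, where it had 251 CPM from 9 UMIs in WT and 17 UMIs in HIF-1α KO. Enteroendocrine-like nuclei had 236 CPM (191 to 288) in WT and 305 CPM (264 to 352) in HIF-1α KO, and 33.3% and 40.6% of them had a UMI at a median depth of 2831 and 4760 UMIs. Goblet-like nuclei had 38.5 CPM (29.9 to 49.0) and 70.0 CPM (62.7 to 77.8). In absorptive enterocyte-like nuclei it was 10.0 and 4.67 CPM, with UMIs in 4.03% and 2.86% of nuclei. The goblet-like class was made of 3 clusters, and the values of Col8a1 differed between them. In the cluster led by Slc12a8 and Spdef it had 55.8 CPM (39.5 to 76.5) in 277 WT nuclei and 133 CPM (117 to 151) in 432 HIF-1α KO nuclei. In the cluster led by Clca1 and Fer1l6 it had 14.6 and 16.9 CPM, and in the cluster led by St6gal1 and Scin 59.5 and 57.7 CPM. The intervals of the libraries were apart in the first of these clusters and overlapped in the other two. Col28a1, known from the matrix of peripheral nerve glia, was highest in glia-like nuclei, at 446 CPM (255 to 724) and 301 CPM (165 to 505), and among the other named classes enteroendocrine-like nuclei had 48.6 CPM (29.7 to 75.1) and 111 CPM (86.3 to 140.4). The log2 ratio there, 1.19, was 0.38 at a clustering resolution of 0.5 and 0.44 without integration. A small cluster led by Pappa2, Gcg and Pyy, hormone genes among them, matched the enteroendocrine markers best, with 5 of them found, but stayed unnamed. The enteroendocrine-like values thus leave its nuclei out. Its Col28a1 level went the other way, with 220.4 CPM (110.0 to 394) from 11 UMIs in 13 WT nuclei and 5.83 CPM (0.15 to 32.5) from 1 UMI in 30 HIF-1α KO nuclei. Col8a2, the partner chain of Col8a1, had 13 and 9 UMIs in all nuclei, and Col26a1 had 6 and 5.

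Counted over all 33 genes and 14 named classes, 10 genes were highest in fibroblast-like nuclei in both libraries, 4 in blood endothelial-like, 4 in glia-like, 3 in mesothelial-like, 1 in lymphatic endothelial-like and 1 in neuron-like nuclei, and none in smooth muscle-like nuclei. For 10 genes the highest class was not the same in both libraries. No minimum of UMIs was set for this count. Col26a1 was thus counted for glia-like nuclei from 1 WT UMI and 2 HIF-1α KO UMIs. Col6a6 was counted for mesothelial-like nuclei from 1 UMI in each library. For Col5a3 and Col12a1, both among the 10 genes that differed, the first classes were fibroblast-like and glia-like nuclei with overlapping intervals. Genes counted for a class could overlap too. Col8a1 had 251 CPM (115 to 476) in glia-like and 236 CPM (191 to 288) in enteroendocrine-like WT nuclei. In HIF-1α KO it had 366 CPM (213 to 585) and 305 CPM (264 to 352). Col3a1 overlapped between fibroblast-like and mesothelial-like nuclei in HIF-1α KO, and Col27a1 between fibroblast-like and glia-like nuclei in WT. Such overlaps were not counted over all genes.

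The comparison of the genotypes within a class asked whether loss of HIF-1α in NKp46 cells was accompanied by other collagen levels in stromal cells. In fibroblast-like nuclei 24 of the 33 genes had at least 20 UMIs in both libraries together. Of these, 2 were at least 1.5-fold higher in HIF-1α KO (Col6a4 and Col6a5), 3 at least 1.5-fold lower (Col1a1, Col18a1 and Col16a1) and 19 in between. Over all 7062 genes counted by the same rule, 15.3% were higher and 11.7% lower by this fold. The median log2 ratio was 0.02 over the 24 collagen genes and 0.08 over all genes. By protein class, the log2 ratio of the summed UMIs was 0.07 (-0.03 to 0.17) for fibrillar, -0.08 (-0.25 to 0.08) for basement membrane, 0.05 (-0.16 to 0.25) for type VI and -0.14 (-0.45 to 0.17) for FACIT chains. Each of these intervals includes 0, so none of these sums differed by more than counting error. With 1 library per genotype, a difference between genotypes could not be tested at any depth.

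**Figure D3:**
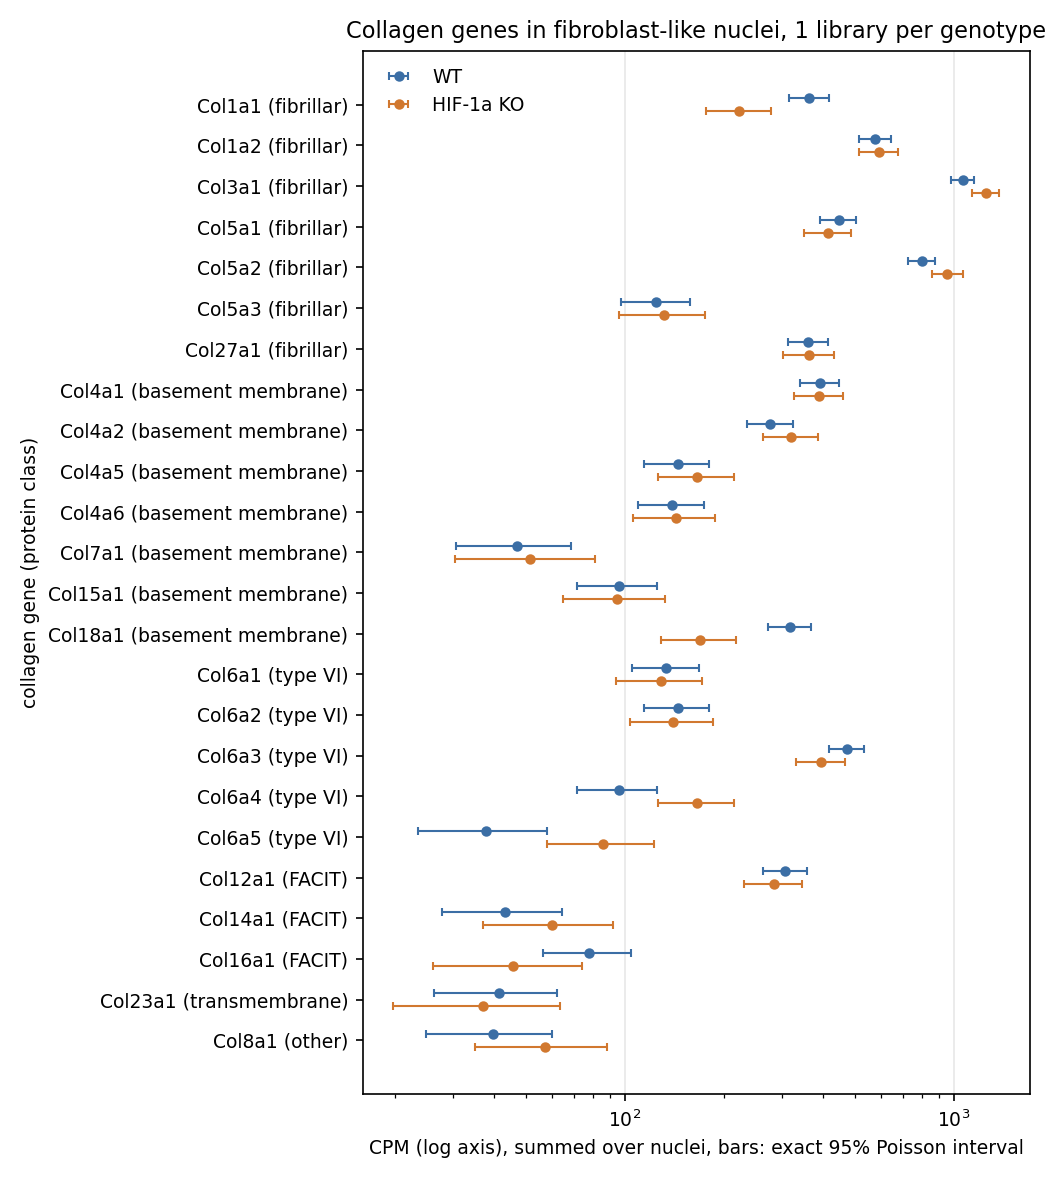
Points give the CPM (log axis) of the 24 collagen genes with at least 20 UMIs in fibroblast-like nuclei, for WT and HIF-1α KO, 1 library each, and bars give exact 95% Poisson intervals. The intervals are apart for Col1a1 (364 and 223 CPM), Col18a1 (319 and 169 CPM) and Col6a4 (96.0 and 166 CPM), and overlap for the other genes.

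The ratio of the type I chains differed between the libraries by more than counting error. Col1a1 had 201 UMIs in WT and 78 in HIF-1α KO fibroblast-like nuclei, or 364 CPM (315 to 418) and 223 CPM (177 to 279), a log2 ratio of -0.70 (-1.10 to -0.32). Col1a2, its partner, had 578 CPM (516 to 645) and 593 CPM (515 to 680), a log2 ratio of 0.04 (-0.22 to 0.30). There were 0.63 (0.53 to 0.75) Col1a1 UMIs per Col1a2 UMI in WT and 0.38 (0.29 to 0.49) in HIF-1α KO. Col3a1 and Col5a2 had log2 ratios of 0.23 (0.05 to 0.42) and 0.26 (0.05 to 0.47), short of 1.5-fold. With each nucleus thinned to 1000 UMIs these were -0.06 and -0.03, and 1 nucleus gave 59 of the 334 HIF-1α KO UMIs of Col5a2. In smooth muscle-like nuclei Col1a1 had 89.6 and 90.1 CPM, and the ratio to Col1a2 was 0.95 (0.65 to 1.38) and 0.91 (0.59 to 1.42). In fibroblast-like nuclei 1 nucleus gave 33 of the 201 WT UMIs of Col1a1, and another 14 of the 78 HIF-1α KO UMIs. With each nucleus thinned to 1000 UMIs the log2 ratio of Col1a1 was -1.34.

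Col18a1 had 176 and 59 UMIs, a log2 ratio of -0.91 (-1.37 to -0.48), and no nucleus gave more than 12 of them. Its log2 ratio was -1.96 with thinned nuclei. Col6a4 had 53 and 58 UMIs, a log2 ratio of 0.79 (0.23 to 1.36), which was 0.32 with equal weight per nucleus and so short of 1.5-fold. Col6a5 had 21 and 30 UMIs, a log2 ratio of 1.18 (0.32 to 2.05), and 13 of the 30 came from 1 nucleus. With thinned nuclei its log2 ratio was 0.36, short of 1.5-fold. Col16a1 had 43 and 16 UMIs, a log2 ratio of -0.76 (-1.69 to 0.09), and its intervals overlapped. By own marker scores of the nuclei, Col1a1 was at -0.55 and Col16a1 at -0.41, both short of 1.5-fold, and Col16a1 was at -0.56 at a resolution of 2. Col18a1 was past 1.5-fold under all 10 alternatives.

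In smooth muscle-like nuclei 17 collagen genes were counted. In HIF-1α KO 1 was at least 1.5-fold higher (Col4a6), 6 were lower (Col27a1, Col6a1, Col6a2, Col12a1, Col23a1 and Col8a1) and 10 lay in between, where 15.5% of all 7267 genes counted were higher and 12.8% lower. The median log2 ratio was -0.14 over the 17 genes and 0.02 over all genes. The summed fibrillar chains had 1265 and 1270.4 CPM, a log2 ratio of 0.01 (-0.15 to 0.16), the basement membrane chains 680.3 and 633 CPM, a log2 ratio of -0.10 (-0.32 to 0.11), and the type VI chains 314 and 281 CPM, a log2 ratio of -0.16 (-0.49 to 0.16). Only Col12a1 had intervals apart, with 191 CPM (159 to 228) in WT and 90.1 CPM (65.0 to 122) in HIF-1α KO, a log2 ratio of -1.09 (-1.63 to -0.57). Col8a1 had 134 and 83.7 CPM, a log2 ratio of -0.68 (-1.26 to -0.12), and Col23a1 had 47.1 and 19.3 CPM from 31 and 9 UMIs. Col4a6 had 33.4 and 55.8 CPM from 22 and 26 UMIs, a log2 ratio of 0.74 (-0.14 to 1.63) that turned to -0.05 with thinned nuclei. Of the 7 genes past 1.5-fold, Col12a1 stayed so under all 10 alternatives, and the other 6 fell short under at least 1. For Col12a1, 1 nucleus gave 23 of the 126 WT UMIs, and another gave 8 of the 42 HIF-1α KO UMIs. Own marker scores put Col27a1 at -0.08, Col6a1 at -0.30 and Col8a1 at -0.48, thinning put Col23a1 at -0.46, and leaving out the subcluster with epithelial markers put Col6a2 at -0.50. The 7 fibroblast markers summed to 207 CPM in WT and 45.1 CPM in HIF-1α KO smooth muscle-like nuclei, with all 7 found in WT and Pdgfra at 0 in HIF-1α KO, and their part in these ratios was not tested.

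**Figure D4:**
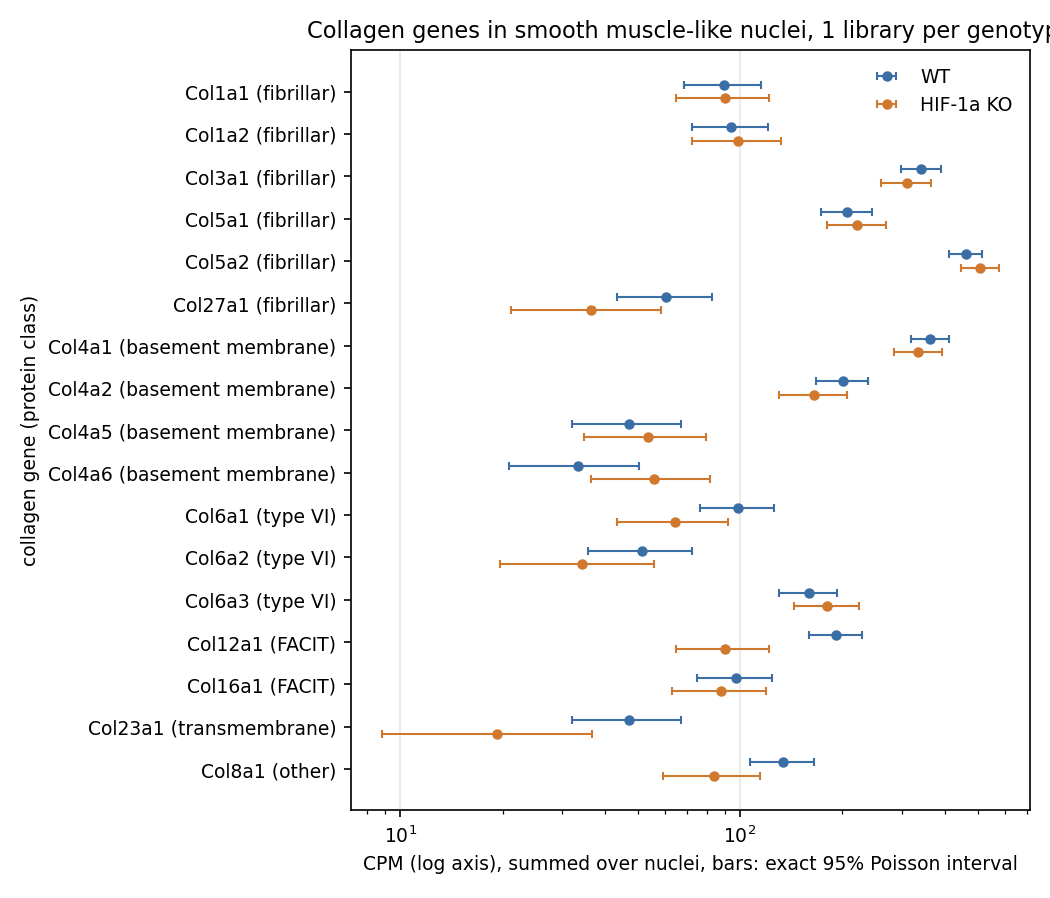
Points give the CPM (log axis) of the 17 collagen genes with at least 20 UMIs in smooth muscle-like nuclei, for WT and HIF-1α KO, 1 library each, with exact 95% Poisson intervals as bars. Col12a1 (191 and 90.1 CPM) is the gene whose intervals are apart.

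The mesenchymal nuclei were clustered again, without collagen genes, into 9 subclusters, and collagen levels differed strongly between them. These are descriptions of groups found in the same nuclei, with both libraries summed. A fibroblast subcluster led by Mmp13, Sox6 and Pdgfra (95 nuclei) had 5294 CPM of fibrillar, 2151 CPM of basement membrane and 1563 CPM of type VI chains. In a subcluster led by Frmpd4, Lepr and Lum (96 nuclei) these were 4088, 1212 and 511 CPM, and in a subcluster led by Notch3 and Ebf1 (113 nuclei) 2133, 841 and 418 CPM. Notch3 was also a pericyte marker. Pericyte markers summed to 622 CPM in the Notch3 subcluster, against 140 CPM in the Frmpd4 and 243 CPM in the Mmp13 subcluster. Fibroblast markers summed to 1752 CPM there, against 3079 and 4636 CPM. The Mmp13 subcluster held 66 WT and 29 HIF-1α KO nuclei. Mmp13 itself had 193 WT and only 11 HIF-1α KO UMIs over all fibroblast-like nuclei, so this name rests mostly on WT nuclei. Col4a5 and Col4a6 stood out in the Mmp13 subcluster, at 366 CPM (304 to 436) and 337 CPM (278 to 404), and were at 7.79 CPM each in the Frmpd4 subcluster. The same pair was at 144 and 122 CPM in the smooth muscle subcluster led by Dpp10 and Hs6st3, and at 0 and 6.48 CPM in that led by Rxfp1 and Sema3d. Col6a4 followed the Mmp13 subcluster too, with 260.5 CPM (209 to 320) there and at most 55.3 CPM in any other. Col14a1 and Col5a3 parted the fibroblast subclusters, with 117 and 58.5 CPM in the Frmpd4 subcluster and 11.7 and 237 CPM in the Mmp13 subcluster. Col12a1 and Col8a1 were highest in the Rxfp1 smooth muscle subcluster, at 641 CPM (521 to 780.4) and 311 CPM (229 to 412), while Col8a1 had 0 UMIs in the Mmp13 subcluster (at most 10.8 CPM).

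**Figure D5:**
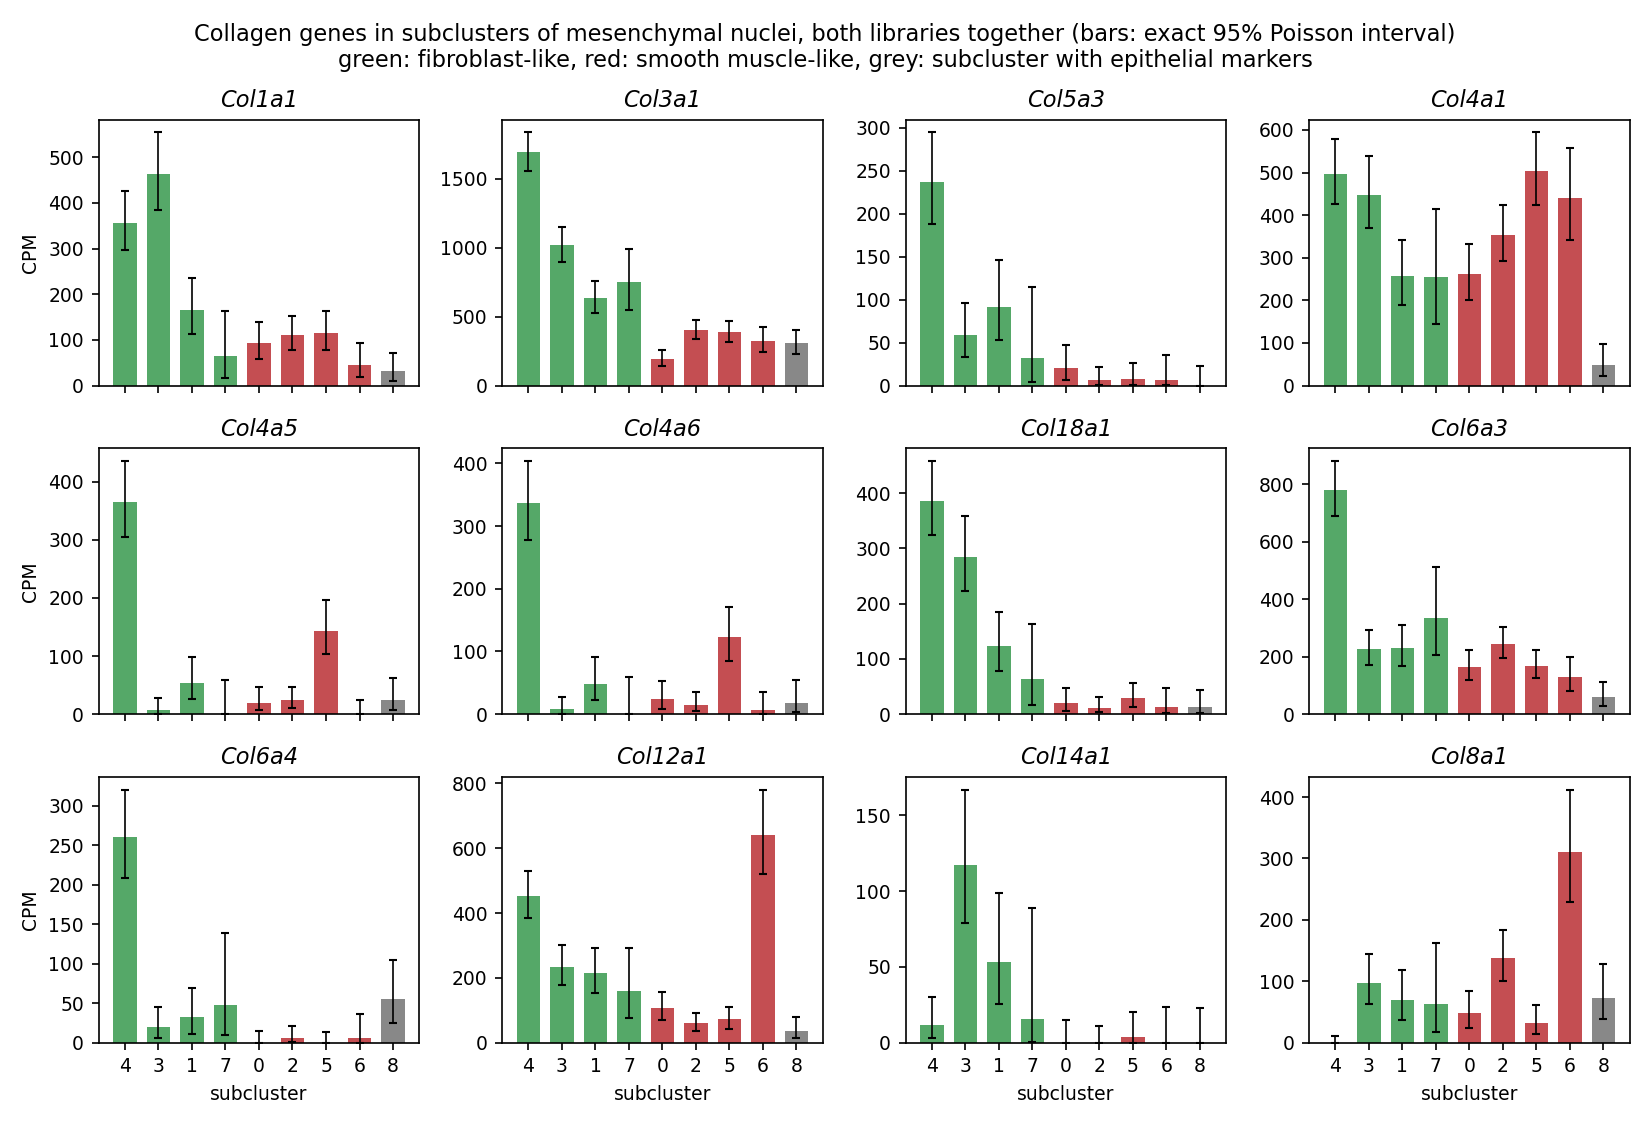
Bars give the CPM of 12 collagen genes in the 9 subclusters of mesenchymal nuclei (x axis, by number), both libraries together, with exact 95% Poisson intervals, in green for fibroblast-like, red for smooth muscle-like and grey for the subcluster with epithelial markers. Col4a5, Col4a6 and Col6a4 are highest in subcluster 4, led by Mmp13, and Col12a1 and Col8a1 in subcluster 6, led by Rxfp1.

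Split by subcluster, the lower Col1a1 of HIF-1α KO was seen in the Frmpd4 subcluster, with 563 and 326 CPM, and in the Mmp13 subcluster, with 448 and 209 CPM, but not in the Notch3 subcluster, with 140 and 208 CPM from 16 and 15 UMIs. Col18a1 was lower in all 3, with 348 and 196, 485 and 224, and 148 and 83.3 CPM. Col6a4 had 207 and 347 CPM in the Mmp13 subcluster. Col12a1 in the Rxfp1 smooth muscle subcluster had 775 CPM in 43 WT nuclei and 325 CPM in 13 HIF-1α KO nuclei, and its nuclei were 8.57% (WT) and 5.26% (HIF-1α KO) of mesenchymal nuclei. In the smooth muscle subclusters led by Adam22 and by Dpp10 it had 52.2 and 66.4 CPM, and 52.5 and 104 CPM. The largest subcluster, led by Bsn (159 nuclei, 149 of them smooth muscle-like), is left out of this split. The subcluster led by Ceacam20 and Tgm3 (23 nuclei) held absorptive enterocyte markers at 2016 CPM and a median of 6400.5 UMIs in WT and 6189 in HIF-1α KO, above the other mesenchymal nuclei. A further subcluster, led by Hhip (27 nuclei), lay in the fibroblast-like class but had 12635 CPM of smooth muscle and 1257 CPM of fibroblast markers.

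In endothelial nuclei the basement membrane chains summed to 1572 CPM in WT and 1755 CPM in HIF-1α KO blood endothelial-like nuclei, a log2 ratio of 0.16 (-0.10 to 0.42), and to 385 and 553 CPM in lymphatic endothelial-like nuclei, a log2 ratio of 0.52 (0.03 to 1.01). Col4a1 in the lymphatic class had 146 and 251 CPM from 30 UMIs each, with 10 of the HIF-1α KO UMIs from 1 nucleus. Of the 19 HIF-1α KO UMIs of Col4a2 in the lymphatic class, 1 nucleus gave 12. Col5a2 in the blood class had 165 CPM (111 to 235) and 395 CPM (292 to 522), but its 49 HIF-1α KO UMIs lay in 4 nuclei, and 1 of these held 24. Col3a1 in the same class had 20 UMIs and 1 UMI, with 15 of the 20 in 1 nucleus.

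Summed over all nuclei without regard to class, the 33 genes had 733 CPM (718 to 747) in WT and 305 CPM (298 to 312) in HIF-1α KO, a log2 ratio of -1.26 (-1.31 to -1.22). Inside fibroblast-like nuclei the same sum had a log2 ratio of 0.03 (-0.05 to 0.10), and inside smooth muscle-like nuclei -0.14 (-0.25 to -0.04). The HIF-1α KO library had a lower collagen CPM beside a smaller share of mesenchymal nuclei, and whether that share differed in the tissue or in the recovery of nuclei cannot be told apart. Over all nuclei other than fibroblast-like and smooth muscle-like ones, the sum was 354 and 162 CPM. There the fibrillar chains had a log2 ratio of -1.63 (-1.74 to -1.51), the type VI chains -1.93 (-2.18 to -1.69) and the basement membrane chains -1.30 (-1.43 to -1.16). In CPM, each of these protein classes was thus lower in HIF-1α KO in the pooled sum of these nuclei, but not in every cell class. The basement membrane chains had a higher CPM in HIF-1α KO in blood and lymphatic endothelial-like nuclei, as given above. Blood endothelial-like nuclei numbered 79 in WT and 34 in HIF-1α KO, and lymphatic ones 77 and 39. The part of such shares in the pooled ratios was not tested. Col8a1 and Col25a1 went the other way over all nuclei, with 30.2 and 35.7 CPM and 5.20 and 9.91 CPM.

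The partners of collagen synthesis were counted from a list of 50 genes in 4 groups. Of 17 chaperones and modifying enzymes, 8 were counted in fibroblast-like nuclei, where P4ha1, a prolyl hydroxylase subunit, had 54.3 and 106 CPM, P3h3 was also at least 1.5-fold higher from 9 and 11 UMIs, and none was lower. In smooth muscle-like nuclei 6 were counted and none passed 1.5-fold. Of 13 processing and cross-linking genes, 7 were counted in fibroblast-like nuclei. Adamts2 and Adamts3, which remove N-terminal propeptides, and Loxl2, a lysyl oxidase, were lower there with log2 ratios of -0.59, -0.60 and -0.92, and Bmp1, which removes C-terminal propeptides, was higher with 0.66, all 4 with overlapping intervals. In smooth muscle-like nuclei Adamts3 had 33.4 and 6.44 CPM, from 22 and 3 UMIs, while Adamts2 and Loxl1 were higher with log2 ratios of 0.74 and 0.69. Of 9 receptors, none of 7 counted passed 1.5-fold in fibroblast-like nuclei, and 1 of 5 did in smooth muscle-like nuclei, the integrin chain Itga1, with 777 CPM in WT and 1266 CPM in HIF-1α KO, a log2 ratio of 0.70 (0.53 to 0.88). Of 11 genes of degradation and its inhibition, Mmp13, a collagenase, had 193 UMIs in WT and 11 in HIF-1α KO fibroblast-like nuclei, or 349 and 31.5 CPM, a log2 ratio of -3.47 (-4.50 to -2.60), and Fap, a fibroblast protease, had 9.05 and 51.6 CPM from 5 and 18 UMIs. Timp2, an inhibitor of matrix metalloproteinases, had 53.1 and 107 CPM in smooth muscle-like nuclei. By the background given above, 15.3% of genes were higher and 11.7% lower in fibroblast-like nuclei, and 15.5% and 12.8% in smooth muscle-like nuclei.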

How the data were processed

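The authors had sequenced the nuclei with 10x 3′ v3.1 chemistry and deposited, per the file headers and labels, whole-number UMI counts per gene and nucleus from Cell Ranger 7.0.1 on mm10, for the barcodes kept by its default calling. Whether introns were counted is not given in the sources used here. From these counts, nuclei were filtered, integrated and clustered with Seurat 5.3.0 in R 4.3.3 (2000 variable features without collagen genes, 30 principal components, resolution 1, seed 1). UMIs were then summed per class and library in Python 3.11.15 with scipy 1.17.1 and given as CPM.

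A cluster was named from its markers when at least 3 reached a log2 ratio of 1 over other nuclei and were in 10% of its nuclei, and when no other class had more of its markers among the 10 leading genes. These thresholds were set with the data seen, and that of a mean log2 ratio of 2, for clusters without a marker among the leading genes, left the Csmd1 cluster unnamed. Unnamed clusters held 1979 WT and 1525 HIF-1α KO nuclei. No doublet caller was run.

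A gene was counted with at least 20 UMIs in both libraries together and called at 1.5-fold. With 1 library per genotype no p-value was computed. The computation of ratios and intervals was checked on simulated Poisson counts with known folds. These counts follow the model of the intervals and hold no spread between nuclei or animals. The check thus does not show how well the intervals cover such spread. All 33 members and all partner genes past 1.5-fold are named. The members, lists and thresholds were chosen with earlier results of these data known. Coordinates are from GENCODE M21 on GRCm38, which held 32158 of 32285 identifiers. Alternatives were all barcodes, thinning to 1000 UMIs, equal weight per nucleus, median-of-ratios and TMM scaling, no integration, resolutions of 0.5 and 2, own marker scores, 2-fold and no minimum of UMIs.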

Additional observations from a re-analysis of the deposited data

Results flagged for a closer look

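For 9 pairs of cell classes a collagen gene had log2 ratios of HIF-1α KO over WT with opposite signs and counting intervals that did not reach 0. The difference between the classes was not tested, and with 1 library per genotype it could not be. Col3a1 had a log2 ratio of 0.23 in fibroblast-like nuclei, against -3.77 in blood endothelial-like and -1.25 in goblet-like nuclei. The endothelial value rests on 20 UMIs and 1 UMI, with 15 of the 20 from 1 nucleus. Col5a2 had 0.26 in fibroblast-like and 1.26 in blood endothelial-like nuclei, against -1.83 in goblet-like nuclei. With each nucleus thinned to 1000 UMIs, the fibroblast-like ratios of Col3a1 and Col5a2 were -0.06 and -0.03, so their positive signs did not hold. Col4a1 had 0.41 in blood endothelial-like and 0.78 in lymphatic endothelial-like nuclei, against -1.60 in goblet-like nuclei. In HIF-1α KO, 1 blood endothelial-like nucleus gave 24 of its 99 UMIs, and 1 lymphatic endothelial-like nucleus gave 10 of its 30. The goblet-like values of these 3 genes come from 21 to 49 UMIs a library, at 4.36 to 24.2 CPM. Beside them, the fibrillar chains had a log2 ratio of -1.73 over all named epithelial nuclei. The goblet-like values of Col3a1 and Col5a2 are part of the epithelial level given above as the background of the fibrillar chains. Whether goblet cells make these chains was not tested.

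Col8a1 had log2 ratios of 0.86 in goblet-like and 0.37 in enteroendocrine-like nuclei, against -0.68 in smooth muscle-like nuclei. Col28a1 had 1.19 in enteroendocrine-like nuclei, against -0.99 in goblet-like nuclei. Its enteroendocrine-like value was 0.38 at a resolution of 0.5 and 0.44 without integration. That value leaves out the unnamed cluster led by Pappa2, Gcg and Pyy, which matched the enteroendocrine markers best. In that cluster the log2 ratio of Col28a1 was -5.24 (-10.67 to -2.46), from 11 UMIs and 1 UMI.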

How the results depend on the processing

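No paired analysis was possible because each genotype had 1 library, and for the same reason no library could be left out. Of the 8 protein class sums, the fibrillar sum in fibroblast-like nuclei had a log2 ratio of 0.07, but -0.15 with each nucleus thinned to 1000 UMIs, -0.14 with equal weight per nucleus and -0.04 with TMM scaling, and in smooth muscle-like nuclei 0.01, but -0.18 with equal weight. The type VI sum was 0.05 in fibroblast-like and -0.16 in smooth muscle-like nuclei, and -0.24 and -0.53 when thinned. The basement membrane sums kept their signs under all 10 alternatives, from -0.19 to -0.04 in fibroblast-like, -0.23 to -0.06 in smooth muscle-like and 0.03 to 0.41 in blood endothelial-like nuclei, and the FACIT sum ran from -0.25 to 0.16. Counts of genes past the fold moved more. The 2 higher in fibroblast-like nuclei became 1 when thinned, 1 with equal weight and 1 at 2-fold, and the 3 lower became 1 by own marker scores, 0 at 2-fold and 6 with no minimum of UMIs. The 1 higher in smooth muscle-like nuclei became 0 when thinned, 0 with equal weight, 0 at 2-fold and 4 with no minimum, and the 6 lower became 3 by own marker scores, 2 at 2-fold and 14 with no minimum. Of the single genes, Col4a6 in smooth muscle-like nuclei turned from 0.74 to -0.05 when thinned, and 17 other values moved beyond their counting interval and 471 did not. Thinning left Col1a1 at -1.34 and Col18a1 at -1.96 in fibroblast-like nuclei, and Col5a2 in blood endothelial-like nuclei at 0.08. Leaving out the subcluster with epithelial markers, an alternative chosen after the data were seen, moved no value beyond its counting interval. No value for Col25a1 in neuron-like nuclei was given at a resolution of 0.5, and equal weight put it at 2.49 in place of 1.72. Col23a1 in lymphatic endothelial-like nuclei was 0.24, and -0.35 at a resolution of 0.5. The cause of these changes was not tested. The median of all genes was shifted by 0.11 in fibroblast-like and 0.07 in smooth muscle-like nuclei by TMM scaling.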

Other observations

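The barcodes outside the limits on detected genes and mitochondrial UMIs, 12 in WT and 70 in HIF-1α KO, held 34 and 199 collagen UMIs, or 146 CPM (101 to 204) and 106 CPM (91.5 to 121). Among the 11 collagen genes that were not described, Col24a1 had 132 and 153 UMIs and Col20a1 71 and 233 UMIs in all nuclei.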
